A study of Mus musculus with 2 samples.

Results

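The nuclear-encoded subunits of oxidative phosphorylation were examined in single cells of the mouse Achilles tendon enthesis, the site where the tendon inserts into bone. Members were all genes whose symbol begins with Nduf followed by a subunit letter and number, Sdha to Sdhd, Uqcr, Cox4 to Cox8 or Atp5, which gave 85 of the 32285 genes in the files. Complex I had 38 members, complex II 4, complex III 8, complex IV 18 and complex V 17. Among them, 9 were kept apart as restricted isoforms or a pseudogene-like entry: Ndufa4l2, Ndufb1-ps, Cox4i2, Cox6a2, Cox6b2, Cox7a1, Cox7b2, Cox8b and Cox8c. All 85 were found by Ensembl ID in the GENCODE M21 annotation, which lists Ndufb1-ps as a non-coding transcript from a bidirectional promoter. Cox7b2 had 0 UMIs in both libraries and Cox8c had 1 UMI in all, so neither is described further.

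The study compared loaded with unloaded hindlimbs in SKG mice, a strain that carries a Zap70 mutation and is prone to autoimmune arthritis and enthesitis. There was 1 library of cells from mice without tail suspension and 1 from mice held by the tail, so that the hindlimbs bore no weight; both came from the same tissue and strain. The age and sex of the mice, the number pooled into a library, the length of suspension and any induction of arthritis are not given in the sources used here. With 1 library in each group there is no replicate, no test was made, and a difference between the libraries cannot be told apart from a difference between 2 mice or 2 preparations. Every interval below is exact, at 95%, and covers counting error only.

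Oxidative phosphorylation moves electrons from NADH through complex I, and from succinate through complex II, to ubiquinone, complex III, cytochrome c and complex IV, where oxygen is reduced. Proton pumping by complexes I, III and IV drives ATP synthesis by complex V. A small number of core subunits are encoded in mitochondrial DNA, whereas all of complex II and most subunits of the other complexes are nuclear genes, and several complex IV subunits exist as paired isoforms, 1 broadly expressed and 1 restricted to tissues such as muscle, brown fat, lung or testis.

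Promoter sequence was available for 67 of the 85 members by symbol, from RefSeq on GRCm38.p6, as windows of 300 bases (250 before to 50 after the start). Each window was searched on both strands for 4 motifs. The core of the site of NRF1, an activator of respiratory genes (GCATGCGC), was in the windows of 10 members (14.9%) and of 3.05% of all 27025 genes. The core of sites for ETS factors such as GABPA (CCGGAAG) was in 17 members (25.4%) and 9.93% of all genes, and that of YY1 (AAGATGGC) in 9 (13.4%) and 3.19%. The letters TATAAA were in 8 members (11.9%) and 15.7% of all genes. The ETS and YY1 motifs can overlap, since CCGGAAG ends in the letters that open AAGATGGC. A match is a description of the sequence, not a bound site. Members with a match upstream of both the RefSeq and the GENCODE start included Atp5e and Uqcrh (ETS core) and Atp5md and Ndufa7 (TATAAA), which are not shown. The 4 windows below hold such a match too and are shown as examples. Each is the 100 bases before the more upstream of these starts, 5′ to 3′ on the gene's strand, with the match in capitals. Ndufa6 and Ndufa11 encode accessory and membrane subunits of complex I and hold the NRF1 core, which in Ndufa11 is read from both strands in overlap. Uqcr11 encodes a small subunit of complex III and Sdhd a membrane anchor of complex II, and both hold the ETS core, in Sdhd on the opposite strand.
Ndufa11, chr17:56717662-56717761, plus strand: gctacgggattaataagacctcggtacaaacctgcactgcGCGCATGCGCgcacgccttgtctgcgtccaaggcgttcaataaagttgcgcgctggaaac
Ndufa6, chr15:82354323-82354422, minus strand: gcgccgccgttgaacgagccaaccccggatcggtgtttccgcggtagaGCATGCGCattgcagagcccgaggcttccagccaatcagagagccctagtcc
Uqcr11, chr10:80406831-80406930, minus strand: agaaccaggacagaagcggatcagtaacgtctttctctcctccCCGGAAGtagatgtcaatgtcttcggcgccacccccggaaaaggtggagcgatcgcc
Sdhd, chr9:50603850-50603949, minus strand: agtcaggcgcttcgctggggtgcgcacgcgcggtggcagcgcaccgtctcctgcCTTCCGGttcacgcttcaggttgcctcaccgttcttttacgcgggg

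The members also had more CG dinucleotides at the start than the set of all genes, which includes them. The median was 19 in the 300 bases against 7 over all genes, a set not limited to genes expressed in these cells. The paired isoforms of subunit 8 of complex IV differed in their CG counts. Cox8a, the broadly expressed form, had 19 CG pairs in 300 bases and Cox8b, the form known from heart, muscle and brown fat, had 2. Below, the 100 bases before each start are shown with every CG in capitals.
Cox8a, chr19:7217617-7217716, minus strand: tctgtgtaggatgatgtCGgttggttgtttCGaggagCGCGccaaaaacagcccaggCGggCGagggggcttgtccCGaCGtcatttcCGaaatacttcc
Cox8b, chr7:140900447-140900546, minus strand: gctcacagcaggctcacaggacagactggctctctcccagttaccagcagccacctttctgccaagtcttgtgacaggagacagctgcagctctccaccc
Cox7a1 had 7 CG pairs in its window beside 20 for its broadly expressed partner Cox7a2, and Cox6b2 had 10 beside 17 for Cox6b1. Cox7b2 went the other way, with 10 beside 5 for Cox7b.

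Cells were dropped if they had fewer than 300 genes, over 20% mitochondrial UMIs or a doublet call, which left 10814 cells with 118098425 UMIs without tail suspension and 13991 cells with 156580161 UMIs with it, at medians of 4649 and 8362 UMIs. The members and the mitochondrial genes were left out of the genes used to cluster. Of 26 clusters, 22 were named from marker genes of 27 cell classes; none was named for chondrocytes, osteoblasts or muscle. Many clusters came mostly from 1 library and may reflect that library rather than a cell type. Tenocyte-like cells were 968 of cluster 0 and 38 of cluster 18 without tail suspension, and 29 and 562 with it. Macrophage-like cells were mostly cluster 8 (1203 of 1244 cells) without tail suspension and mostly cluster 12 (1187 of 1220 cells) with it, and T cell-like cells mostly cluster 13 (438 cells) and cluster 21 (809 cells). Neutrophil-like cells were mostly clusters 6 and 7 (1826 and 3251 cells) and clusters 24 and 17 (1036 and 355 cells). The libraries share 47 barcode sequences.

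Levels are given as a percent of the UMIs of a class or, for single genes, as CPM (counts of a gene divided by all UMIs of the class, on a common scale). The subunits together took up a different share of the transcripts in each cell class, with neutrophils at the bottom and osteoclast- and adipocyte-like cells at the top. Over all kept cells the 85 genes held 1.65% of UMIs without tail suspension and 2.02% with it. Neutrophil-like cells had 0.634% (0.631 to 0.638) and 1.09% (1.08 to 1.09), the lowest of the named classes in each library. Tenocyte-like cells had 1.37% and 1.81%, fibroblast-like cells 1.58% and 1.88%, and sheath or lining fibroblast-like cells 1.76% and 1.99%. Blood endothelial-like cells had 1.70% and 2.13%. Among other leukocytes, mast or basophil-like cells had 1.37% in 7 cells and 1.59% in 70 cells, and the remaining classes had more: 1.84% and 2.29% in macrophage-like, 1.97% and 2.32% in T cell-like and 2.00% and 2.37% in monocyte-like cells. In B cell-like cells the share was lower with tail suspension, at 2.17% and 1.64%, while the medians over their cells were 1.67% and 1.57% and cells with at least 1000 genes had 1.66% and 1.70%. At the top stood the adipocyte-like cells, with 2.45% in 16 cells and 3.99% (3.94 to 4.03) in 58 cells. Cluster 15, which was named osteoclast-like, had 4.20% and 3.25%.

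**Figure D1:**
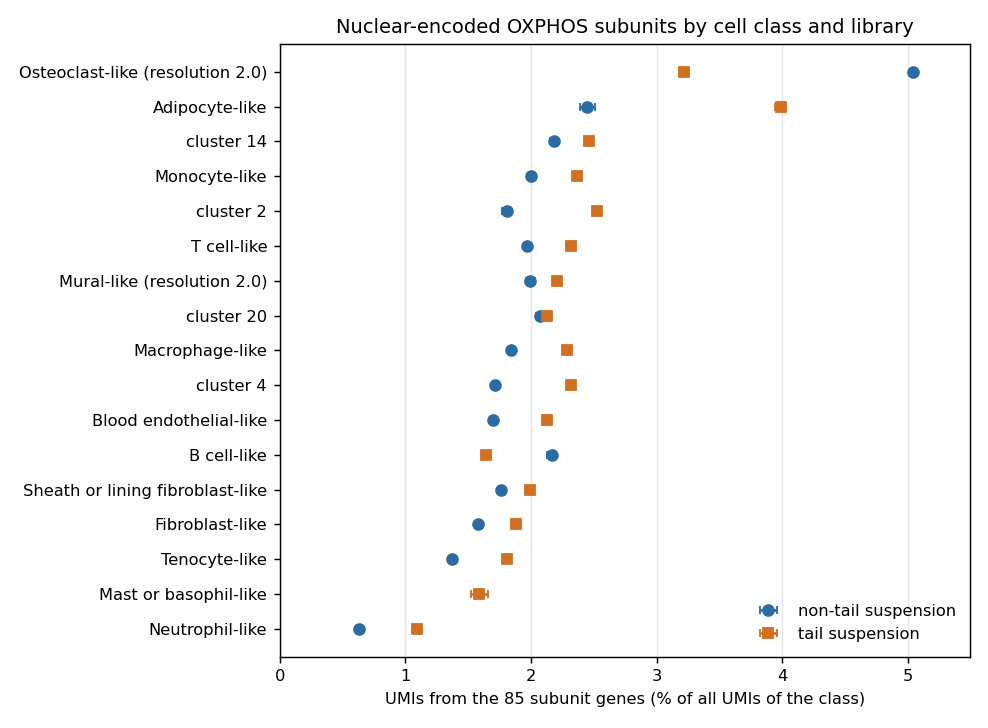
The share of UMIs from the 85 subunit genes is plotted for cell classes and unnamed clusters in both libraries (blue circles, non-tail suspension; orange squares, tail suspension), with exact intervals for counting error. Neutrophil-like cells sit lowest at 0.634% and 1.09%, and the osteoclast- and adipocyte-like cells sit highest.

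At a finer clustering (resolution 2.0), chosen after the data were seen because cluster 15 also held granulocyte progenitor genes, osteoclast-like cells formed a group of their own with 120 and 53 cells. Osteoclasts are multinucleate bone-resorbing cells known for dense mitochondria. Their subunit share was 5.04% (5.02 to 5.07) without tail suspension and 3.22% (3.18 to 3.26) with it. The cluster was mixed. In the library without tail suspension, 64 of the 120 cells had at least 20 UMIs of Acp5, the tartrate-resistant acid phosphatase of osteoclasts, and their share was 5.70% (5.67 to 5.73) at a median of 39921 UMIs. Another 29 cells had at least 5 UMIs of Siglech, a plasmacytoid dendritic cell receptor, and their share was 1.80% (1.74 to 1.85) at a median of 9236 UMIs; no cell had both. With tail suspension only 4 of 53 cells passed the Acp5 threshold and 10 the Siglech threshold. The levels of the osteoclast-like cluster in the libraries are therefore given side by side and not as a change in osteoclasts.

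Within the library without tail suspension, osteoclast-like cells had 2.84-fold more subunit UMIs, as a share of all UMIs, than macrophage-like cells of the same clustering (820 cells), a log2 difference of 1.51 (1.5 to 1.52). All 79 members with at least 100 UMIs in the pair of classes were higher, 78 of them by at least 1.5-fold, where 30.6% of the 8178 genes tested were. Their median log2 difference was 1.5, beside 0.18 over all genes tested. Every complex was higher, from 1.37 for complex I through 1.44 for complex IV, 1.60 for complex V and 1.70 for complex III to 1.75 for complex II. Atp5g1, a gene for the c-ring of the ATP synthase rotor, stood at 973 against 210 CPM, and Uqcr10, a small subunit of complex III, at 893 against 192 CPM. The 13 mitochondrially encoded subunits were higher by 0.61 in sum, and cytosolic ribosomal protein genes by 0.82.

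Adipocyte-like cells gave a similar contrast in the library with tail suspension, against the fibroblast lineage (tenocyte-, fibroblast- and sheath or lining fibroblast-like cells together). The 58 adipocyte-like cells had 2.09-fold more subunit UMIs, on the same scale, than 6466 fibroblast-lineage cells, a log2 difference of 1.06 (1.04 to 1.08). Of 82 members with enough UMIs, 79 were higher and 72 were higher by at least 1.5-fold, against 22.4% of 12949 genes. The members' median was 1.0, and that of all genes tested -0.26. Sdha, the flavoprotein that oxidises succinate, stood at 193 against 54.3 CPM and Uqcr10 at 1163 against 325 CPM. Cox8b showed the widest gap of the members in the direction of adipocytes among those named, at 97.9 (76.6 to 123) against 2.69 CPM. Ndufa4l2 went the other way, at 2.72 against 163 CPM. Mitochondrially encoded subunits were higher by 1.15 here, while ribosomal protein genes were lower by a log2 value of -0.48.

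In neutrophils the shortfall ran through almost every subunit, yet it was set within a wider one. Neutrophils are short-lived granulocytes that rely largely on glycolysis. In the library without tail suspension the summed subunit level was 2.90-fold below that of macrophage-like cells, a log2 difference of -1.54 (-1.55 to -1.53). Of 80 members ranked, 79 were lower and 76 were lower by at least 1.5-fold, beside 59.1% of the 9474 genes tested. The members' median was -1.82 and that of all genes -1.0. With tail suspension the sum was 2.11-fold less (log2 -1.08), 78 of 80 were lower and 68 lower by at least 1.5-fold, beside 68.9% of 9007 genes. There the members' median of -1.26 lay close to the -1.20 of all genes tested. The mitochondrially encoded subunits were lower by more, at -2.91 and -2.23 in sum. Cytosolic ribosomal protein genes were also lower by more than the subunits, at -1.99 without and -1.32 with tail suspension.

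Single subunits differed widely in how far they fell short in neutrophils. Ndufc2, an accessory subunit of the complex I membrane arm, stood at 20.4 CPM in neutrophil-like and 220.0 CPM in macrophage-like cells without tail suspension. Atp5g2, another c-ring gene, stood at 44.2 and 432 CPM. Ndufb9, also of the complex I membrane arm, was nearly level at 185 and 220 CPM, and Cox8a stood at 555 and 709 CPM. With tail suspension Ndufs3, a core subunit of the arm of complex I that carries iron-sulfur clusters, stood at 16.6 and 89.6 CPM. Ndufa4l2 was higher in neutrophil-like cells, by log2 1.53 and 1.05, at levels of 4.86 and 9.45 CPM.

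Among 5 broad classes, (fibroblast lineage, macrophage-, monocyte-, neutrophil- and T cell-like), neutrophil-like cells were lowest for 74 of the 76 members ranked without tail suspension and for 73 of 75 with it. The other 2 in each library were lowest in the fibroblast lineage. The same count was not made over all genes. Of genes tested, 59.1% and 68.9% were at least 1.5-fold lower in neutrophil-like than in macrophage-like cells. Among members other than the isoforms kept apart, the largest range between highest and lowest class in each complex without tail suspension was 10.8-fold for Ndufc2, 6.30-fold for Sdhc, 7.61-fold for Uqcrb, 5.87-fold for Cox5a and 10.4-fold for Atp5g1. The smallest was 1.39-fold for Ndufb9, 2.80-fold for Sdha, 2.49-fold for Uqcrq, 1.67-fold for Cox8a and 1.79-fold for Atp5l. With tail suspension the largest ranges among the same members were 5.41-fold for Ndufs3, 4.14-fold for Sdhc, 4.33-fold for Uqcr11, 3.56-fold for Cox7a2l and 5.36-fold for Atp5g2. The smallest were 1.35-fold for Ndufa8, 2.22-fold for Sdhb, 2.11-fold for Uqcrq, 1.61-fold for Cox7a2 and 1.43-fold for Atp5f1. Of the isoforms kept apart, Ndufa4l2 had a range of 95.2-fold and 35.6-fold, from the fibroblast lineage down to macrophages, and Cox6b2 and Cox7a1 had 12.5-fold and 6.35-fold without and 8.50-fold and 10.1-fold with tail suspension, on lowest counts of 1 to 19 UMIs.

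**Figure D2:**
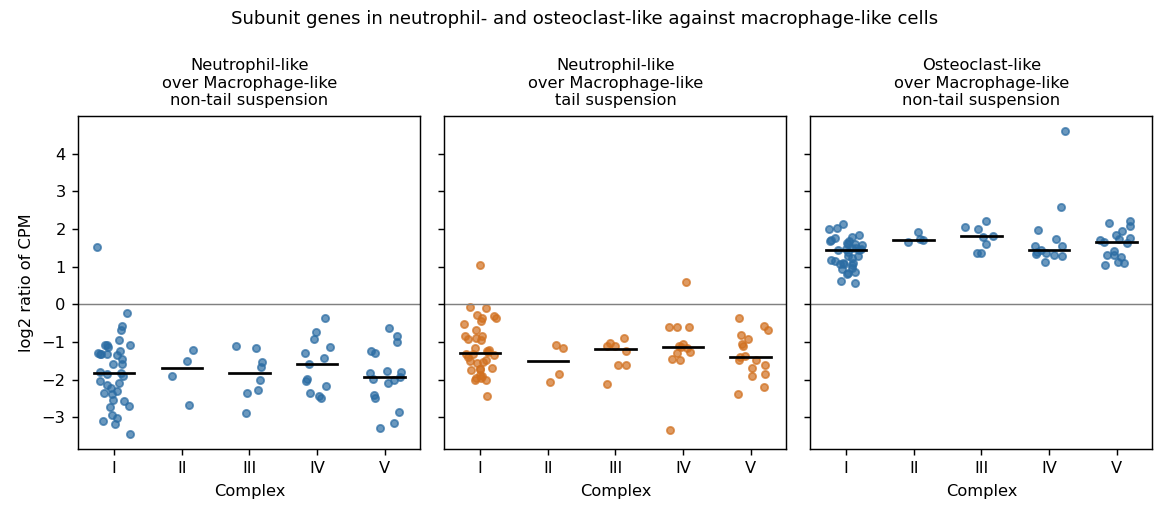
Each point is 1 subunit gene, plotted as the log2 difference between a pair of cell classes within 1 library, by complex. Black lines are medians. All 79 points lie above 0 for osteoclast-like over macrophage-like cells, and for neutrophil-like over macrophage-like cells 79 of 80 and 78 of 80 lie below 0.

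Between the libraries, the summed subunit level was higher with tail suspension in most classes, and the subunits of 1 complex did not move together. As a log2 ratio, with the library without suspension as the base, the sum was higher by 0.41 (0.41 to 0.42) in the fibroblast lineage, 0.77 (0.76 to 0.79) in neutrophil-like, 0.31 (0.31 to 0.32) in macrophage-like, 0.24 (0.24 to 0.25) in monocyte-like and 0.24 (0.22 to 0.25) in T cell-like cells. The same 2 libraries underlie every class, so the classes are not independent. Of 22 clusters with at least 20 cells in each library, 20 had a higher sum with tail suspension and 2 a lower one, with a range of -0.40 to 0.69 and a median of 0.35.

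In the fibroblast lineage 57 of 83 measured members (68.7%) were higher and 26 lower with tail suspension, where 53.9% of all genes tested were higher. By at least 1.5-fold, 26 of 82 ranked members (31.7%) were higher, against 17.3% of the 13402 genes tested, and 0 were lower, against 13.2%. The members' median log2 ratio was 0.33, and that of all genes 0.05. Of the lineage's cells, 1006 of 1323 were tenocyte-like without and 591 of 6466 with tail suspension. In tenocyte-like cells 50 of 81 measured members (61.7%) were higher, where 43.3% of all genes tested were. By at least 1.5-fold, 21 of 79 ranked members (26.6%) were higher and 4 lower, with a median of 0.22. In fibroblast-like cells 48 of 83 (57.8%) were higher, where 47.4% of all genes tested were. By at least 1.5-fold, 15 of 82 (18.3%) were higher and 3 lower, with a median of 0.15. The share of all genes past 1.5-fold is not given for these classes, so these calls have no background beside them. Medians of all genes tested were -0.10 and -0.03 in these classes. Within the 7 clusters of the lineage the summed ratio ran from 0.18 in cluster 10 to 0.59 in cluster 0, and at resolution 0.5 that of the lineage was 0.01 with 36 members higher. In neutrophil-like cells 75 of 80 (93.8%) were higher, where 49.7% of all genes tested were. By at least 1.5-fold, 49 of 79 (62.0%) were higher and 1 lower, where 23.7% and 25.9% of 7515 genes were, and the median was 0.83 beside -0.00.

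In macrophage- and monocyte-like cells the members' median and the share of members higher stood near those of all genes. The share of members lower by at least 1.5-fold was below that of all genes. In macrophage-like cells 56 of 82 members (68.3%) were higher, where 67.2% of all genes tested were. By at least 1.5-fold, 21 of 80 ranked members (26.2%) were higher and 1 lower, where 27.3% and 7.81% of all genes were. The members' median of 0.24 matched the 0.25 of all genes, and under median-of-ratios scaling 41 of 82 members were higher. In monocyte-like cells 47 of 82 (57.3%) were higher, where 59.0% of all genes tested were. Of 79 ranked there, 17 (21.5%) were higher and 0 lower by at least 1.5-fold, beside 16.1% and 8.35% of all genes, with medians of 0.09 and 0.11. In T cell-like cells 48 of 79 (60.8%) were higher (56 under median-of-ratios scaling), where 42.2% of all genes tested were. By at least 1.5-fold, 18 of 77 (23.4%) were higher and 1 lower, beside 9.92% and 14.1%, with medians of 0.15 and -0.10.

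Part of the neutrophil difference goes with which neutrophil clusters each library held. Cluster 17, led by the granule genes Camp, Ngp and Ltf of immature neutrophils, had a subunit share of 1.03% without and 1.31% with tail suspension in 184 and 355 cells, a log2 ratio of 0.35 (0.33 to 0.37). The clusters that made up most neutrophils without tail suspension were lower: 0.487% in cluster 6 and 0.643% in cluster 7. Cluster 24, which held most of those with tail suspension, had 0.645% in 34 cells and 0.892% in 1036 cells. Within cluster 17, 50 of the 80 members measured in neutrophil-like cells were higher with tail suspension. The same count over all genes was not made there.

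**Figure D3:**
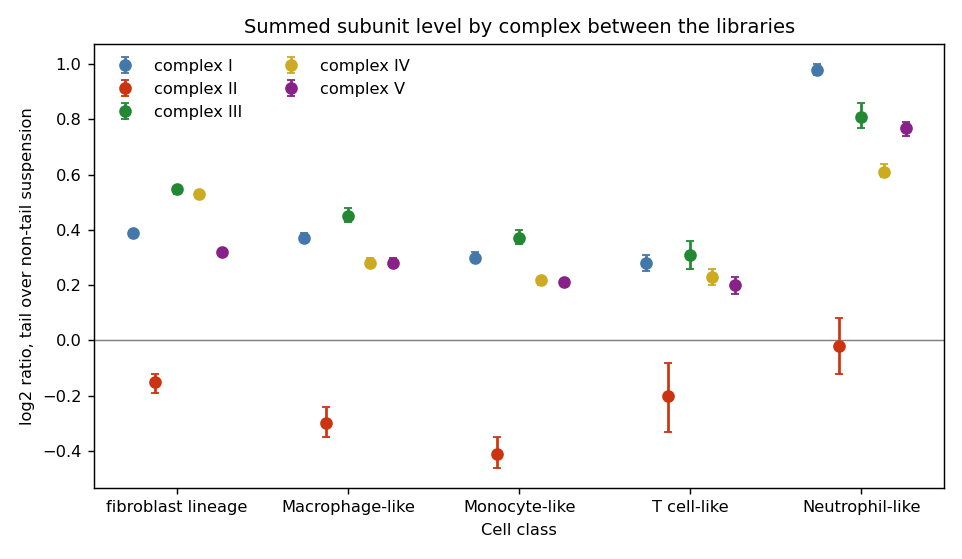
The log2 ratio between the libraries (positive where higher with tail suspension) of the summed subunits is plotted by complex and cell class, with exact intervals for counting error. Complexes I, III, IV and V lie above 0 in all 5 classes, and complex II lies below 0 in the fibroblast lineage, macrophages, monocytes and T cells, with an interval that spans 0 in neutrophils.

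By complex, the sums of complexes I, III, IV and V were higher with tail suspension and that of complex II was not. In the fibroblast lineage the log2 ratios were 0.39 for complex I, 0.55 for complex III, 0.53 for complex IV and 0.32 for complex V, and -0.15 for complex II. In neutrophil-like cells they were 0.98, 0.81, 0.61 and 0.77, and -0.02 (-0.12 to 0.08) for complex II. Complex II stood at -0.30 in macrophage-like, -0.41 in monocyte-like and -0.20 in T cell-like cells. Over the 22 clusters the complex II sum was higher with tail suspension in 3 and lower in 19. The complex V sum hid a division among its 17 members. In the fibroblast lineage 11 were higher and 6 lower, in macrophage-like cells 10 and 7, and in monocyte-like cells 6 and 11. T cell-like cells had 9 and 8, and neutrophil-like cells 16 and 1.

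Complex II is the succinate dehydrogenase, shared by the respiratory chain and the TCA cycle. In the fibroblast lineage Sdha stood at 58.1 CPM without and 54.3 CPM with tail suspension. Sdhb, the iron-sulfur subunit, stood at 81.5 and 70.4 CPM. Of the membrane anchors, Sdhc stood at 59.6 and 65.7 CPM and Sdhd at 84.1 and 64.6 CPM, so Sdhc alone was higher, by a log2 ratio of 0.14 (0.06 to 0.21). In neutrophil-like cells Sdha stood at 32.5 and 21.2 CPM, Sdhb at 50.9 and 62.6, Sdhc at 13.2 and 23.1 and Sdhd at 52.0 and 39.5 CPM.

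The widest ratios in the other complexes belonged to small accessory subunits. Atp5k, the e subunit at the dimer interface of ATP synthase, had the highest ratio of complex V in each of the 5 classes. It stood at 90.6 (87.3 to 93.9) and 315 (311 to 318) CPM in the fibroblast lineage, a log2 ratio of 1.80 (1.74 to 1.85), and at 35.9 and 189 CPM in neutrophil-like cells, a ratio of 2.40 (2.27 to 2.54). It stood at 142 and 406 CPM in macrophage-like, 154 and 407 CPM in monocyte-like and 126 and 412 CPM in T cell-like cells. Atp5d, the delta subunit of the catalytic head's central stalk, stood at 278 and 189 CPM in the fibroblast lineage, a ratio of -0.56 (-0.60 to -0.52), and at 320 and 231 CPM in macrophages.

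Cox7c, a small membrane subunit of complex IV, had the highest ratio of its complex in the same 5 classes among the subunits not kept apart. Its levels without and with tail suspension were 367 and 723 CPM in the fibroblast lineage, 76.0 and 282 CPM in neutrophil-like, 423 and 772 CPM in macrophage-like, 432 and 738 CPM in monocyte-like and 403 and 710 CPM in T cell-like cells. Cox5a, which lies on the matrix side of complex IV, was lower with tail suspension in 3 of these, at 573 and 370 CPM in macrophage-like, 487 and 344 CPM in monocyte-like and 620 and 419 CPM in T cell-like cells. Cox7a2l, a factor that joins complexes III and IV into supercomplexes, stood at 188 and 149 CPM in the fibroblast lineage, with log2 ratios of -0.33 there, -0.42 in macrophages, -0.33 in monocytes, -0.53 in T cells and 0.12 (-0.02 to 0.25) in neutrophils.

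Small subunits of complexes I and III also had high ratios. Ndufa3, a small accessory subunit, stood at 68.6 and 152 CPM in the fibroblast lineage, 90.7 and 197 CPM in macrophage-like and 111 and 258 CPM in monocyte-like cells. In neutrophil-like cells Ndufa5 had the widest ratio of complex I, at 8.26 (6.97 to 9.71) and 37.7 (33.6 to 42.1) CPM. Uqcr11 stood at 144 and 318 CPM in the fibroblast lineage, 205 and 428 CPM in macrophage-like and 132 and 291 CPM in T cell-like cells. Uqcrc2, a core protein of complex III, stood at 70.9 and 53.9 CPM in the fibroblast lineage and 80.1 and 58.3 CPM in monocyte-like cells.

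These ratios ran with transcript length. Atp5k has a median spliced transcript of 321 bases in GENCODE M21, Ndufa3 433, Uqcr11 445 and Cox7c 540, whereas Atp5d has 931, Cox7a2l 1102, Uqcrc2 1896 and Sdha 2900. Across the 82 ranked members of the fibroblast lineage Spearman's rho between transcript length and log2 ratio was -0.69; it was -0.52 in neutrophils (79), -0.68 in macrophages (80), -0.71 in monocytes (79) and -0.64 in T cells (77). The members share both libraries and the same depth, are not independent, and the values are a description. Over all other genes tested rho was 0.12, -0.00, 0.29, 0.25 and 0.10. Genes under 500 bases that are not members also had higher medians with tail suspension: 1.03 in the fibroblast lineage, 0.87 in neutrophils, 0.77 in macrophages, 0.78 in monocytes and 0.79 in T cells.

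Set against other genes in the same length bin, 51 of 82 members in the fibroblast lineage lay above the bin's median ratio, as did 70 of 79 in neutrophils, 45 of 80 in macrophages, 39 of 79 in monocytes and 47 of 77 in T cells. Cytosolic ribosomal protein genes, which are also short, took 11.1% and 14.9% of UMIs in the fibroblast lineage, 2.52% and 4.88% in neutrophils, 10.0% and 12.2% in macrophages, 10.7% and 14.3% in monocytes and 18% and 25.3% in T cells, and their sum was higher with tail suspension in 21 of the 22 clusters. The part of transcript length, RNA recovery or library preparation in the subunit ratios was not tested.

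**Figure D4:**
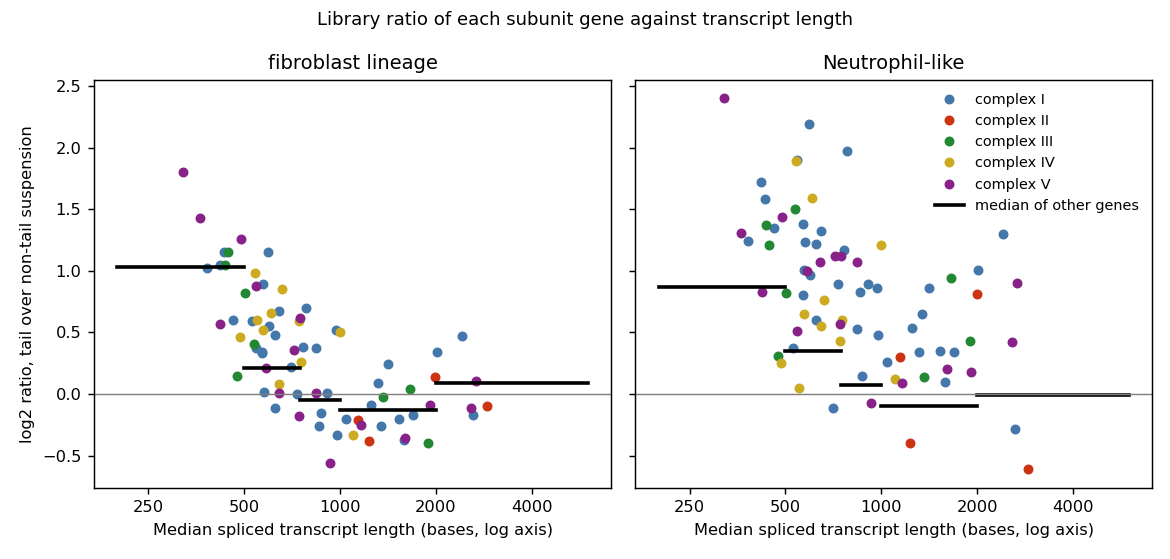
Each point is 1 subunit gene, with its median spliced transcript length on a log axis and its log2 ratio between the libraries (positive where higher with tail suspension), in the fibroblast lineage and in neutrophil-like cells; black bars are the medians of other genes in each length bin. Short transcripts such as Atp5k (321 bases) lie at the top in both. In the fibroblast lineage most members from 1000 to under 2000 bases lie below 0 (14 of 19), and in neutrophil-like cells 18 of 19 of that length lie above 0.

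Other genes of the pathway did not share the size of the subunit ratio in the fibroblast lineage. The 13 mitochondrially encoded subunits were higher in 7 and lower in 6, with a sum of -0.14. Of 50 measured assembly factors, which build the complexes, 18 were higher and 32 lower, at a median of -0.21. TCA cycle enzymes divided 8 and 8, regulators of mitochondrial biogenesis 7 and 7, mitochondrial ribosomal proteins 36 and 42, and mobile carriers and related factors 7 and 6. In neutrophil-like cells, by contrast with these counts, all 13 mitochondrially encoded subunits were higher (sum 0.62), as were 67 of 77 mitochondrial ribosomal proteins, 30 of 44 assembly factors and 13 of 16 TCA cycle enzymes. Macrophage-like cells had 46 of 78 mitochondrial ribosomal proteins and 27 of 49 assembly factors higher, monocyte-like cells 33 of 78 and 19 of 49, and T cell-like cells 41 of 78 and 22 of 47. Of all genes tested, 53.9% were higher in the fibroblast lineage and 49.7% in neutrophil-like cells. The share was 67.2% in macrophage-like, 59.0% in monocyte-like and 42.2% in T cell-like cells.

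The ratio of mitochondrially encoded to nuclear-encoded subunit UMIs was lower with tail suspension in several classes: 2.49 and 1.70 in the fibroblast lineage, 0.938 and 0.841 in neutrophils and 2.42 and 1.87 in macrophages. It was higher in B cell-like cells, at 1.69 and 2.33.

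The restricted isoforms differed in which cell classes held them. Levels of an isoform beside its partner are given as a share of the pair's UMIs, which is not scaled by transcript length. Cox4i2 is the isoform of subunit 4 that is known from lung and from oxygen-sensing and vascular cells. Its highest level without tail suspension among the named classes was in mural-like cells, the pericytes and smooth muscle cells of vessel walls, at 256 (215 to 302) CPM in 39 cells without and 69.3 (55.5 to 85.5) CPM in 135 cells with tail suspension. It made up 21.6% and 6.05% of the UMIs of Cox4i1 and Cox4i2 there and was found in 53.8% and 36.3% of cells, at median depths of 14432 and 6386 UMIs. T cell-like cells, as a class that should lack it, had a UMI in 0 of 482 and 0.737% of 814 cells, at median depths of 5112 and 3825 UMIs. The count of 0 allows a level of up to 1.30 CPM by the exact interval.

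The tenocyte-like clusters differed in Cox4i2. The class as a whole stood at 3.07 and 83.6 CPM, but cluster 18, led by Angptl7, Fmod, Comp and Chad, had 77.9 (57.2 to 104) CPM in 38 cells without and 94.7 (85.5 to 105) CPM in 562 cells with tail suspension. Cluster 0, led by collagen genes, had 1.18 and 0 CPM in 968 and 29 cells. The difference between libraries in the class goes with which cluster held most of its cells, and within cluster 18 the intervals overlapped. Ndufa4l2, a paralogue of Ndufa4 that is known to be induced in low oxygen, also stood higher in cluster 18 than in cluster 0. The symbol rule places Ndufa4 and Ndufa4l2 with complex I, although the Ndufa4 protein is now known as a subunit of complex IV. Ndufa4l2 stood at 136 and 775 CPM in the class and at 895 (821 to 973) and 837 (809 to 865) CPM in cluster 18. In cluster 0 it stood at 117 (113 to 121) CPM without and 308 (263 to 358) CPM with tail suspension, where the intervals did not overlap. It was 31.2% and 69.5% of the UMIs of Ndufa4 and Ndufa4l2 in tenocyte-like cells, and 67.7% and 53.6% in mural-like cells, where it stood at 489 and 385 CPM. Fibroblast-like cells had 292 (276 to 308) and 136 (133 to 139) CPM, and macrophage-like cells 1.69 and 4.57 CPM.

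Cox8b had its highest level per UMI in adipocyte-like cells, though with tail suspension more of its UMIs lay in the far more numerous fibroblast-like cells (209) than in adipocyte-like cells (72). With tail suspension 34.5% of the 58 cells had a UMI, at a median depth of 12005 UMIs, and it made up 4.27% of the UMIs of Cox8a and Cox8b. No UMI was found in 814 T cell-like cells of that library, which allows up to 0.452% of cells with a UMI by the exact interval and sets no limit on cells that express the gene at a median depth of 3825 UMIs, and fibroblast-like cells had 0.888 and 3.33 CPM. The window before its start, printed above, is the one without a CG pair. Cox7a1, the heart and muscle form of subunit 7a, was low throughout. It stood at 5.51 (4.48 to 6.72) and 23.5 (21 to 26.3) CPM in macrophage-like cells and was found in 6.99% and 17.6% of them (median depths 13926 and 9490 UMIs), beside 0.830% and 2.83% of T cell-like cells. It stood at 30.9 (25 to 37.7) and 7.75 (2.84 to 16.9) CPM in osteoclast-like cells, and at 0.533 and 1.29 CPM in tenocyte-like cells.

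Cox6a2, the heart and muscle form of subunit 6a, appeared in the osteoclast-like cluster at 105 and 60.7 CPM but not in its osteoclasts. Of its UMIs, 324 of 327 without and 47 of 47 with tail suspension lay in cells with at least 5 UMIs of Siglech, and 0 lay in cells with at least 20 UMIs of Acp5. Cox6b2, known as the testis form of subunit 6b, stood at 1.53 (1.01 to 2.22) and 9.82 (7.78 to 12.2) CPM in neutrophil-like cells, 4.39 and 13.4 CPM in monocyte-like cells and 7.77 and 3.55 CPM in fibroblast-like cells. Ndufb1-ps, whose symbol marks a pseudogene, was among the more abundant entries, at 127 and 325 CPM in the fibroblast lineage, 96.8 and 324 CPM in neutrophil-like and 206 and 442 CPM in macrophage-like cells; reads from neighbouring or similar sequences cannot be told apart here.

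**Figure D5:**
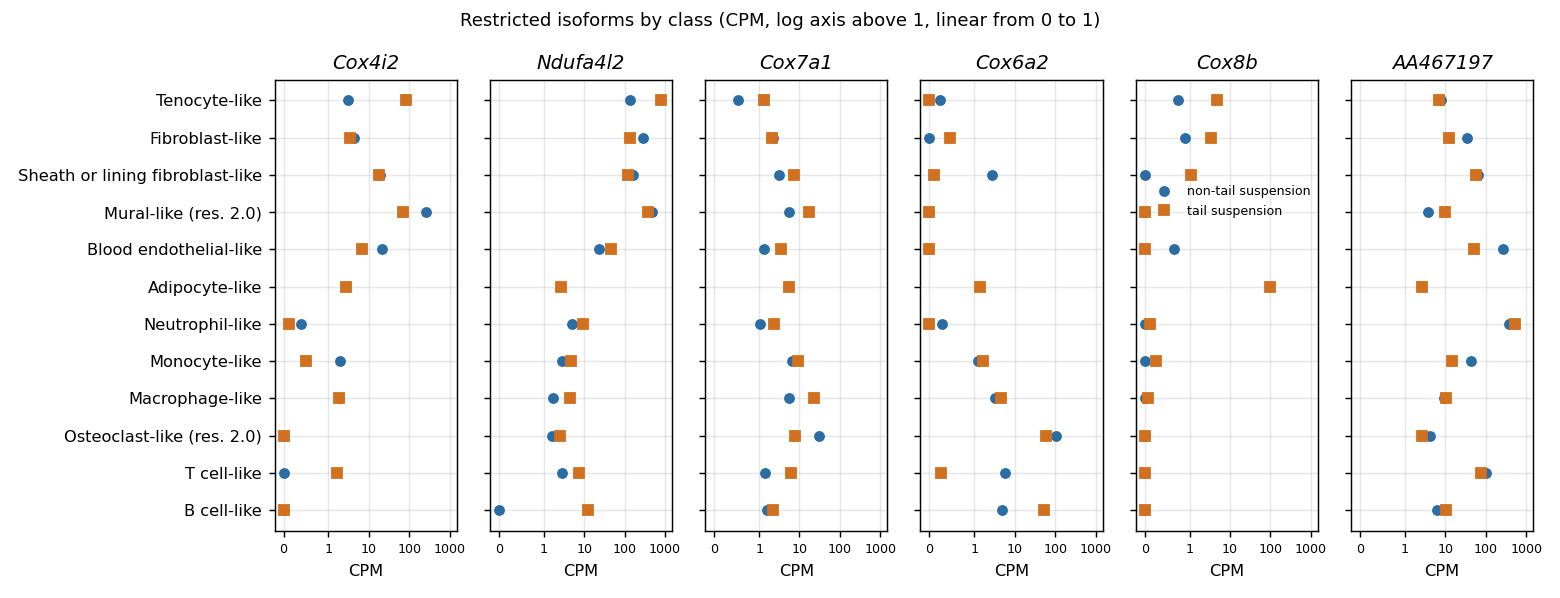
Levels of restricted isoforms in CPM, on an axis that is logarithmic above 1, are plotted by cell class for both libraries. Among the classes plotted, Cox4i2 is highest in mural-like cells without (256 CPM) and in tenocyte-like cells with tail suspension (83.6 CPM), Cox8b is highest in adipocyte-like cells and AA467197 in neutrophil-like cells.

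AA467197 is a paralogue of Ndufa4 that the symbol rule does not include, and it is given because it bears on Ndufa4. In neutrophil-like cells it stood at 385 (376 to 394) and 523 (508 to 539) CPM, with Ndufa4 at 67.2 and 171 CPM, so that it held 85.1% and 75.3% of the UMIs of the pair. Macrophage-like cells had 9.34 and 10.3 CPM, 2.88% and 2.12% of the pair. T cell-like cells had 103 and 75.2 CPM, monocyte-like cells 42.2 and 14.3 CPM, and blood endothelial-like cells 266 (241 to 294) and 51.5 (43.1 to 61.1) CPM. Within neutrophils it stood at 636 and 615 CPM in cluster 17 and at 436 and 441 CPM in cluster 24, where the intervals of the libraries overlapped. In cluster 7 it stood at 382 (369 to 395) CPM in 3251 cells without and 841 (595 to 1154) CPM in 24 cells with tail suspension.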

How the data were processed

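Single-cell RNA was measured in 1 library per group. The deposited values are raw UMI counts per gene and barcode, which the authors made before deposit; Cell Ranger 5.0.1 and the build GRCm38 are named in the submitters' processing notes. Whether the libraries were brought to equal depth is not given in the sources used here. The members, gene lists, markers and rule for naming clusters were chosen with earlier results of these data known.

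Cells with under 300 genes or over 20% mitochondrial UMIs were left out, as were 133 (1.21%) and 492 (3.40%) doublets called by Scrublet in scanpy 1.11.5, below the expected 9.14% and 12.4%, so doublets may remain. Clustering used 2000 variable genes without members or mitochondrial genes, 30 components, 15 neighbours and Leiden resolution 1.0. Cluster names needed at least 3 markers of a class among the top 50 genes. UMIs were summed per class and library and given as CPM (numpy 2.4.6, scipy 1.17.1). Intervals are exact Poisson, Clopper-Pearson or conditional binomial. Classes with at least 100 cells in each library were compared. Members needed 20 UMIs to be measured and 100 to be ranked. Named members had the highest or lowest ratio, or the largest or smallest range over classes, in each complex; isoforms, partners, Cox7a2l, AA467197 and Sdha to Sdhd were added. One gene that this rule names is not reported here. The calculations were tested on simulated data.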

Additional observations from a re-analysis of the deposited data

Results flagged for a closer look

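The isoforms below were higher with tail suspension in 1 class or cluster and lower in another; the differences between classes were not tested. Cox6b2 had a log2 ratio of 2.68 in neutrophil-like cells and -1.13 in fibroblast-like cells. Ndufa4l2 had 2.51 in tenocyte-like cells, whose clusters 0 and 18 differ in number between the libraries, and -1.10 in fibroblast-like cells. AA467197 had 0.65 in the fibroblast lineage, although its level with tail suspension was lower in 6 of the lineage's 7 clusters. The cluster with the highest level with tail suspension, cluster 10 (63.0 and 57.1 CPM), held 82 of 1323 and 1427 of 6466 cells of the lineage. AA467197 had -1.65 in cluster 20, which is led by Gzma and Nkg7.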

How the results depend on the processing

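No paired analysis was possible because there was 1 library per group, and none could be left out. No summed log2 ratio of the 7 classes compared, and neither neutrophil over macrophage difference, changed direction under the alternatives run. The number of members higher with tail suspension in the fibroblast lineage, 57, was 36 at resolution 0.5, where other clusters carry the lineage's names, and its summed log2 ratio of 0.41 was 0.01. Summed ratios ranged from 0.07 to 0.43 in macrophages (lowest under median-of-ratios scaling), 0.01 to 0.30 in monocytes (lowest with at least 500 genes), 0.35 to 0.84 in neutrophils (lowest within cluster 17), 0.19 to 0.37 in T cells, 0.27 to 0.50 in tenocytes and 0.27 to 0.51 in fibroblast-like cells. Members higher ranged from 41 to 61, 32 to 51, 50 to 76, 45 to 57, 47 to 53 and 47 to 65 in the same order. The main summed ratio was 0.40 in tenocytes and 0.25 in fibroblast-like cells, and all 12 alternatives in fibroblast-like cells gave a higher value. Median-of-ratios scaling moved the median of all genes by 0.25 in macrophages and 0.11 in monocytes. The cause of these shifts was not tested.

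The neutrophil over macrophage difference, -1.54 without and -1.08 with tail suspension, was -1.48 and -1.09 with at least 500 genes, -1.42 and -1.02 with at least 1000, -1.53 and -1.10 with at most 10% mitochondrial UMIs, -1.59 and -1.20 at resolution 0.5, -1.51 and -1.15 with each library clustered alone, -1.55 and -1.14 as a mean over cells, -1.72 and -1.25 without mitochondrially encoded, ribosomal protein and haemoglobin genes, and -1.57 and -1.15 in cells thinned to 1000 UMIs. It was -1.48 without tail suspension at resolution 2.0, and with tail suspension -1.01 with doublets kept and -1.10 with members used to cluster. The order of the B cell shares did change, from 2.17% and 1.64% to 1.66% and 1.70% in cells with at least 1000 genes. The mean of ratios within clusters used clusters with at least 50 cells in each library, which left none for tenocytes, macrophages and T cells and gave 0.26 in the fibroblast lineage from clusters 1, 3 and 10. With at least 20 cells, single clusters had 0.59 and 0.56 (0 and 18, tenocyte-like), 0.38 and 0.33 (8 and 12, macrophage-like) and 0.69 (21, T cell-like). The comparison with length bins, the shortest transcript as the length (rho -0.72 in the fibroblast lineage) and the use of resolution 2.0 for osteoclast- and mural-like cells were added after the data were seen.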

Other observations

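In B cell-like cells with tail suspension, Cox6a2 stood at 54.4 CPM, and its 48 UMIs lay in 1 cell of 321 (0.312%). In cluster 2, led by Rgs5 and Apod and left unnamed, Cox4i2 stood at 282 (237 to 333) CPM in 84 cells without and 29.8 (23.6 to 37.2) CPM in 564 cells with tail suspension. The mural-like cells described above come from a finer clustering of the same cells. They and cluster 2 may therefore share cells and UMIs, and the overlap was not counted. Cox6b2 stood at 7.72 (4.94 to 11.5) and 63.3 (46.8 to 83.7) CPM in the osteoclast-like cluster at resolution 2.0.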
